A study of Homo sapiens with 24 samples.

Results

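The 10 genes described here, LUM, POSTN, MGP, SCGB2A2, SCGB1D2, FABP4, CD74, C1QB, TYROBP and HBB, mark stromal, breast epithelial, fat, immune and red blood cells. They were selected on their log2 signal, which was low on 22 arrays of A2780 ovarian cancer cells and higher on the 2 arrays of Rab25 cells given fetal bovine serum (FBS), so their excess on those 2 arrays chose them and is given as a description with no test. They are 10 of the 11940 genes measured. For each gene, the probe set (a group of short probes read together as 1 signal) with the highest mean over all 24 arrays is shown.

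A2780 is an established human ovarian carcinoma line, studied here as 12 arrays of cells transfected to express the small GTPase Rab25 and 12 arrays of cells transfected with the pcDNA vector. All cells were starved of serum for 8 h. Rab25 and pcDNA cells then received 10 ng/ml of EGF or of IGF, 5 ng/ml of TGF beta, or 5% FBS, with 2 arrays per line and treatment, or were kept as starved controls, with 4 arrays per line. Each group was split evenly over experiment 1 and experiment 2. How long cells were exposed is given in 2 ways: 8 h (experiment 1) and 24 h (experiment 2) by the protocol, but 24 h for both experiments by the sample sources. Each line is represented by 1 transfected line. The labels do not say whether arrays came from separate cultures, so p-values measure the spread between these arrays.

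Lumican (LUM), periostin (POSTN) and matrix Gla protein (MGP) are secreted into the extracellular matrix by fibroblasts and related stromal cells. Mammaglobin A (SCGB2A2) and lipophilin B (SCGB1D2) are small secretoglobins, known from breast epithelium, that form a complex with each other. FABP4 carries fatty acids in adipocytes and also in macrophages. CD74, the invariant chain, escorts MHC class II molecules in antigen-presenting cells, C1QB is a chain of complement C1q made by macrophages, TYROBP (DAP12) is a signalling adaptor of myeloid and natural killer cells, and HBB is the beta chain of adult haemoglobin.

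Promoter stretches are shown for 4 members, to place on the genome 1 stromal marker, the marker of antigen presentation and the 2 neighbouring secretoglobins. Each is the 100 bases before the gene's start in RefSeq (GRCh38.p14), read along the gene's strand, with TATAAA or CCAAT in capitals where a search of both strands found it. The POSTN stretch is chr13:37598769-37598868 (minus strand), that of SCGB2A2 chr11:62270058-62270157 (plus strand), that of SCGB1D2 chr11:62242139-62242238 (plus strand) and that of CD74 chr5:150412911-150413010 (minus strand).
POSTN: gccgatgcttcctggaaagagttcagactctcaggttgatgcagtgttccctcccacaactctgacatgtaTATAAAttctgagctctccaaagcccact
SCGB2A2: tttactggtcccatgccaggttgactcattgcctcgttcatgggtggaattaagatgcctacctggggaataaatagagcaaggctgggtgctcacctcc
SCGB1D2: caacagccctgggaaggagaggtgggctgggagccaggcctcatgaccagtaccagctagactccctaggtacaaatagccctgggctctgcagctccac
CD74: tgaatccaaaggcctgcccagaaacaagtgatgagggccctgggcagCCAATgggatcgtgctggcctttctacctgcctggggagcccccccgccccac
TATAAA began 29 bases before the start of POSTN, and CCAAT began 53 bases before the start of CD74. Of 35116 promoters in the table, 4.99% held TATAAA and 18.1% held CCAAT in the same window. Neither set of letters was found in the 2 secretoglobin stretches, which says nothing about the factors that act there. The secretoglobin genes lie on the same strand with 25345 bases between them.

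All 10 members lay above the highest of the 22 other arrays on both Rab25 FBS arrays, which was the basis of their choice. Over all genes, 11.2% lay above the 22 on the experiment 1 array, 4.28% on the experiment 2 array and 1.06% on both. An excess of at least 2-fold over the highest of the 22 was reached by 7 members on the experiment 1 array, against 0.637% of all genes, and by 8 members on the experiment 2 array, against 0.151%. On both arrays it was reached by 6 members and 5 other genes, together 0.0921% of genes. Since this comparison chose the members, nothing is read from these shares. On the 22 other arrays, every member's median lay below 6.79 on the log2 scale, the 40th percentile of gene medians. The member medians there ran between 4.70 and 6.05, against 4.99 to 8.16 for 20 liver, neuron and skeletal muscle genes. The files used here hold no detection calls, and a signal this low may be background. In that respect alone, a fold over the median of the 22 is a lower bound for the probe set shown, written below as "at least". Other probe sets of a gene can give less, as for POSTN and HBB below, and folds do not rank the members.

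**Figure D1:**
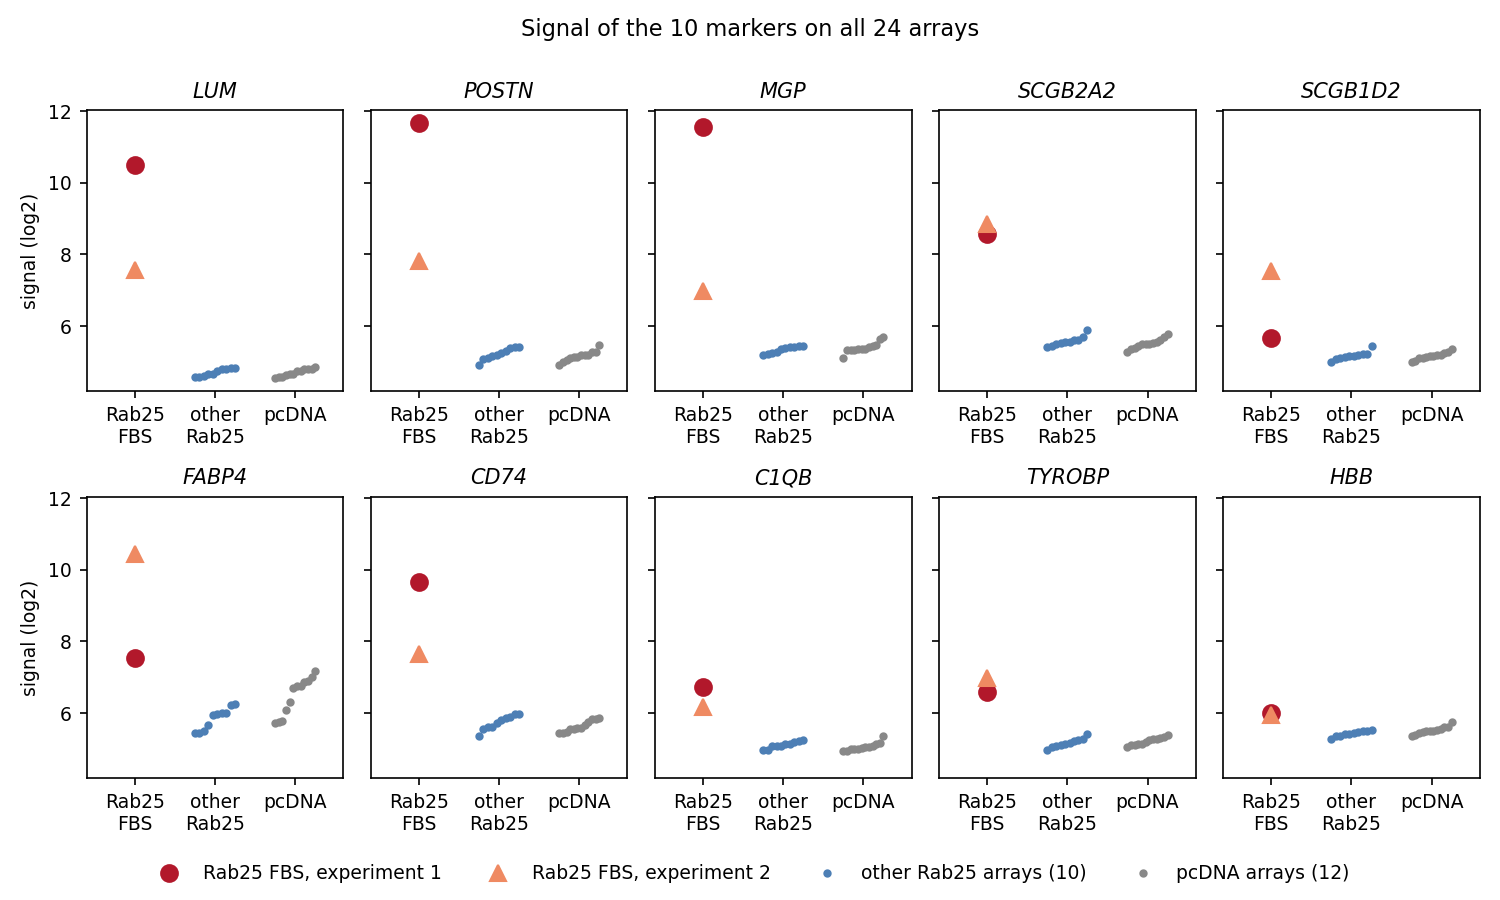
Log2 signal of the 10 markers on each of the 24 arrays, with 1 panel per gene and 1 point per array: Rab25 FBS at the left (circle, experiment 1; triangle, experiment 2), then the 10 other Rab25 arrays and the 12 pcDNA arrays in order of signal. Both Rab25 FBS points lie above all other points in every panel, the lower of them by the least for HBB. The distance between the Rab25 FBS points differs by gene.

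The 3 matrix genes stood farthest above the 22 on the experiment 1 array and had the largest gaps between the 2 Rab25 FBS arrays. On the experiment 2 array, FABP4 and SCGB2A2 stood farther above the 22 than any of them. LUM (chr12:91102629-91111494, GRCh38.p14) had a log2 signal of 10.48 on the Rab25 FBS array of experiment 1 and 7.57 on that of experiment 2, against a lowest, median and highest of 4.54, 4.70 and 4.85 on the 22 others. Both arrays were far above a narrow band, at least 55.0-fold and 7.29-fold over its median, and the SD of the 22 was 0.10.

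POSTN (chr13:37562585-37598768), a matrix protein that binds integrins, had 11.67 in experiment 1 and 7.82 in experiment 2 on the Rab25 FBS arrays, against 4.91, 5.19 and 5.48 on the others. On this probe set these were at least 89.4-fold and 6.18-fold over the median. The second POSTN probe set had 5.17 and 4.95 on the Rab25 FBS arrays, against 4.59, 4.83 and 5.08 on the others. That was 1.26-fold and 1.08-fold over its median, and only the experiment 1 array lay above the 22. The size of the POSTN excess thus rests on 1 of its 2 probe sets.

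MGP (chr12:14880864-14885854), an inhibitor of calcification, had 11.56 and 6.97 on the Rab25 FBS arrays of experiments 1 and 2, against 5.11, 5.36 and 5.69. Its excess was at least 73.3-fold in experiment 1 and at least 3.05-fold in experiment 2. The arrays of the same labelled condition differed from each other by 24.0-fold for MGP, 14.5-fold for POSTN and 7.54-fold for LUM. In the 9 other groups, the largest difference between experiments was 0.34 on the log2 scale for MGP, 0.28 for POSTN and 0.27 for LUM.

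The 2 secretoglobins did not follow this order. SCGB2A2 (chr11:62270158-62273160) had 8.57 in experiment 1 and 8.84 in experiment 2 on Rab25 FBS, against 5.28, 5.52 and 5.90 on the 22 others. The 2 arrays were close to each other, at least 8.23-fold and 9.96-fold over the median. SCGB1D2 (chr11:62242239-62244812) had 5.67 and 7.54, against 4.99, 5.17 and 5.45. Here the experiment 1 array exceeded the highest of the others by 0.23 on the log2 scale, and the experiment 2 array by 2.09. The difference between the 2 Rab25 FBS arrays, experiment 1 minus experiment 2, was -0.28 for SCGB2A2 and -1.87 for SCGB1D2, although both genes belong to 1 complex.

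FABP4 (chr8:81478419-81483233) stood farther above the 22 on the experiment 2 array than on the experiment 1 array. It had 7.54 on the Rab25 FBS array of experiment 1 and 10.42 on that of experiment 2, against 5.43, 6.05 and 7.16 on the others. The excess over the median was at least 2.80-fold and 20.7-fold, and the experiment 1 array stood 0.37 above the highest of the others, the pcDNA TGF beta array of experiment 2. FABP4 also had the widest spread of all members on the 22 arrays, with an SD of 0.54 against 0.10 to 0.18 for the other members.

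Among the immune markers, CD74 (chr5:150401639-150412910) had 9.66 and 7.66 on the Rab25 FBS arrays of experiments 1 and 2, against 5.36, 5.63 and 5.97. It was at least 16.3-fold and 4.08-fold over the median, higher in experiment 1 as the matrix genes were. C1QB (chr1:22653236-22661637) had 6.72 and 6.16, against 4.94, 5.07 and 5.36. TYROBP (chr19:35904403-35908295) had 6.59 and 6.98, against 4.98, 5.17 and 5.41. The 2 myeloid genes were within 0.57 log2 units between the 2 Rab25 FBS arrays, C1QB higher in experiment 1 and TYROBP higher in experiment 2.

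HBB (chr11:5225464-5227071) stood least above the 22 others on the experiment 2 array, and SCGB1D2 did on the experiment 1 array. Its probe set of highest mean had 6.00 and 5.94 on the Rab25 FBS arrays, against 5.28, 5.48 and 5.75, or 1.43-fold and 1.38-fold over the median. Of its 2 other probe sets, 1 had 6.02 and 5.40, against 5.11, 5.45 and 5.65, and the other had 5.85 and 5.30, against 5.15, 5.43 and 5.93. Neither lay above the 22 others on the experiment 2 array. Globin genes are near-identical in part and the probe set shown can share signal with their paralogs, so the HBB value is uncertain.

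**Figure D2:**
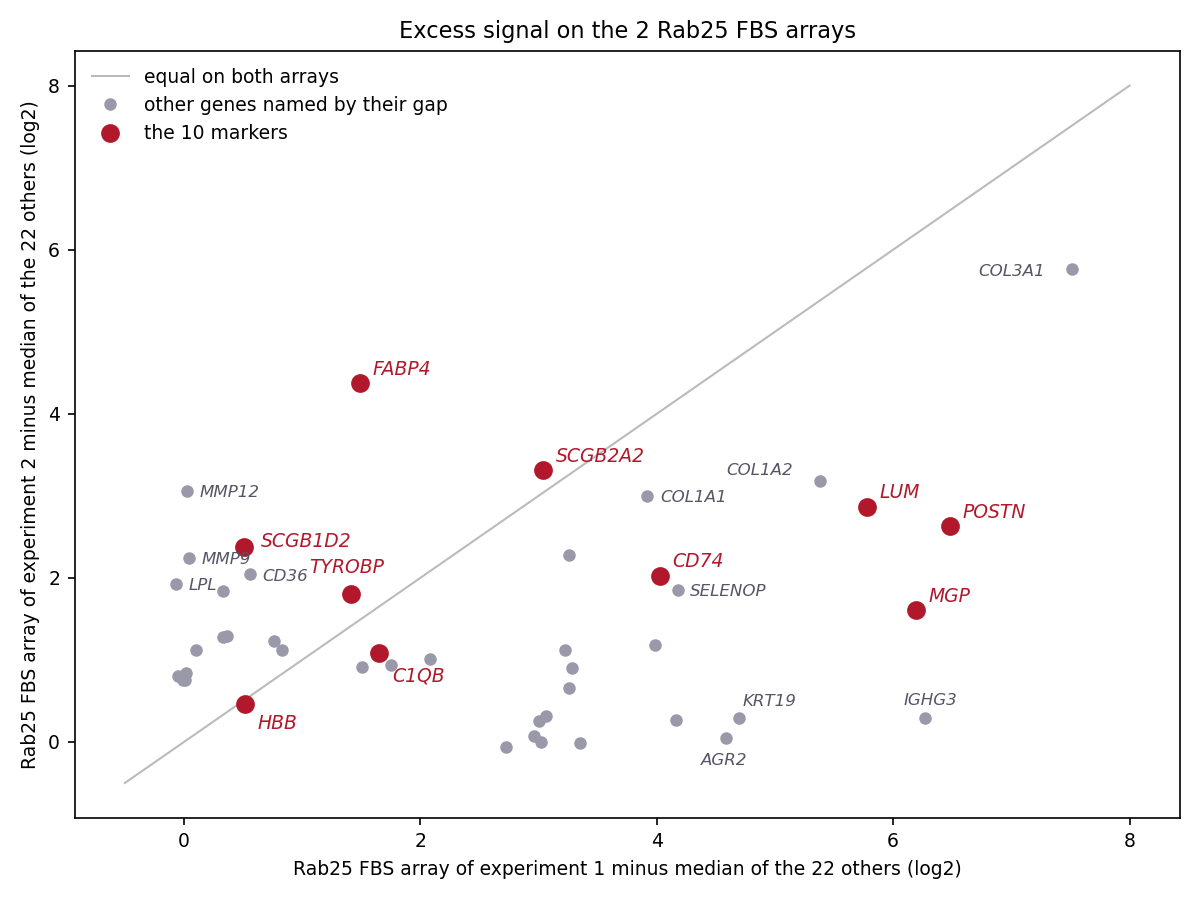
Log2 excess over the median of the 22 other arrays on the Rab25 FBS array of experiment 1 (x axis) and of experiment 2 (y axis), with the 10 markers in red, other genes named for their gap in grey, and a line of equal excess. Of the markers, 6 lie below the line and 4 above it, with MGP, POSTN and LUM farthest below and FABP4 farthest above.

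On the 22 arrays that did not choose the excess, the members could be compared between lines, treatments and experiments with limma 3.58.1, with p-values adjusted by the Benjamini-Hochberg method over all 11940 genes and a threshold of 0.05. These arrays did enter the choice as low, so a small difference between them is partly set by the rule. FABP4 was lower in Rab25 cells and higher in experiment 2, and CD74 was slightly higher in experiment 2. Between lines outside FBS, 1 of 10 members passed, against 24.7% of all genes. For EGF, IGF and TGF beta in 1 test, 0 of 10 members passed in limma's F test against 4.68% of genes, with 1 at an unadjusted p under 0.05 (HBB, adjusted p = 0.177). For FBS against starvation in pcDNA cells, 0 of 10 passed against 10.4%, again with 1 at an unadjusted p under 0.05 (POSTN, log2 difference 0.26, SE 0.11, adjusted p = 0.129). Between experiments, 2 of 10 passed against 43.1%.

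FABP4 averaged 5.72 ± 0.30 on Rab25 starved arrays, against 6.48 ± 0.50 on pcDNA starved arrays (SD, n = 4 each). With EGF it averaged 5.94 ± 0.39 in Rab25 cells and 6.40 ± 0.87 in pcDNA cells, with IGF 6.10 ± 0.20 in Rab25 cells and 6.50 ± 0.57 in pcDNA cells, and with TGF beta 5.71 ± 0.39 in Rab25 cells and 6.45 ± 1.01 in pcDNA cells (SD, n = 2 each). Over these 4 conditions, Rab25 minus pcDNA was -0.59 on the log2 scale (SE 0.13, limma, adjusted p = 0.0025), and Rab25 was the lower line in 8 of 8 condition by experiment cells.

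Within experiment 2, the 5 Rab25 arrays ran between 5.95 and 6.24 and the 5 pcDNA arrays between 6.70 and 7.17, with no overlap. Within experiment 1, the 5 Rab25 arrays ran between 5.43 and 5.96 and the 5 pcDNA arrays between 5.73 and 6.75, which overlapped. The line difference passed under all but 2 of 30 alternatives (limma, lowest adjusted p = 0.000739). It did not pass without the experiment term (limma, adjusted p = 0.112) or with the 2 Rab25 FBS arrays in the fit (limma, adjusted p = 0.0576). Experiment 2 minus experiment 1 was 0.68 for FABP4 (SE 0.12, limma, adjusted p = 0.000152), higher in experiment 2 in 9 of 9 groups. For CD74 it was 0.17 (SE 0.06, limma, adjusted p = 0.0387), higher in experiment 2 in 7 of 9 groups, and this call was lost under 16 of 29 alternatives, among them leaving out any of 13 of the 22 arrays (limma, adjusted p between 0.00247 and 0.965 over the alternatives).

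**Figure D3:**
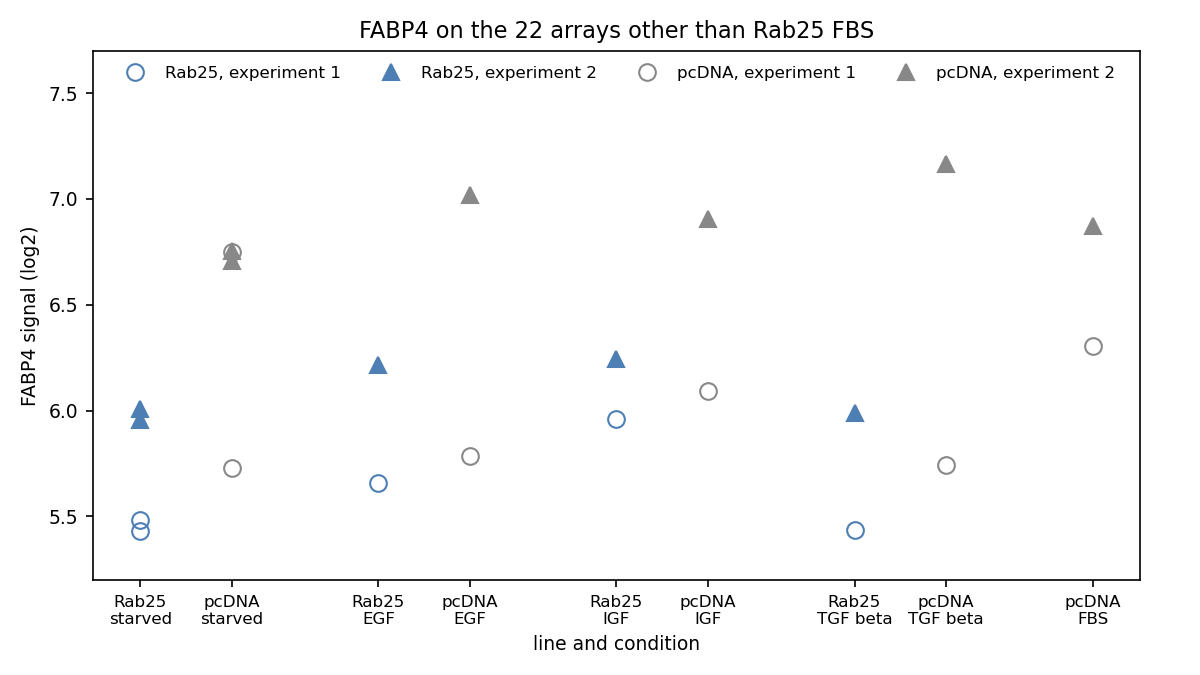
FABP4 log2 signal on the 22 arrays other than Rab25 FBS, by condition, with Rab25 (blue) left of pcDNA (grey), open circles for experiment 1 and filled triangles for experiment 2. The filled triangles lie above the open circles in every group except pcDNA starved, where 1 open circle lies among them, and the blue triangles lie below all grey triangles.

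The other members stayed within narrow bands across the 9 groups. Group means of LUM ran between 4.66 (pcDNA EGF) and 4.74 (pcDNA TGF beta), and those of SCGB1D2 between 5.05 (Rab25 EGF) and 5.26 (pcDNA TGF beta). TYROBP group means ran between 5.13 (Rab25 IGF) and 5.30 (pcDNA IGF), and those of C1QB between 4.95 (pcDNA IGF) and 5.21 (Rab25 IGF). POSTN group means ran between 5.00 (Rab25 TGF beta) and 5.34 (pcDNA FBS), MGP means between 5.29 (Rab25 TGF beta) and 5.51 (pcDNA TGF beta), and SCGB2A2 means between 5.43 (pcDNA IGF) and 5.65 (Rab25 starved). CD74 group means ran between 5.51 (pcDNA IGF) and 5.82 (Rab25 starved), and HBB means between 5.33 (Rab25 TGF beta) and 5.63 (pcDNA IGF). The largest SD within any of these groups was 0.28, so most neighbours in these orders did not differ beyond their spread. In pcDNA cells given FBS, the only other group with serum, LUM averaged 4.73 ± 0.09 and FABP4 6.59 ± 0.40 (SD, n = 2), against 4.71 ± 0.12 and 6.48 ± 0.50 on pcDNA starved arrays (SD, n = 4).

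Genes nearest to the members in pattern were taken as those whose lower Rab25 FBS value lay farthest above the highest of the 22 others. They were led by fibrillar collagens, the main structural proteins of connective tissue. COL3A1 had 12.76 and 11.00 on the Rab25 FBS arrays of experiments 1 and 2, against 5.04, 5.24 and 6.60 on the others, and its signal correlated with the members' mean at r = 0.99 over the 24 arrays. That r rests on the 2 Rab25 FBS arrays. COL1A2 had 11.73 and 9.54, against 6.05, 6.35 and 6.91, and COL1A1 had 11.53 and 10.60, against 5.82, 7.60 and 9.02. Both collagens were higher in experiment 1, as LUM and POSTN were. COL6A3 (10.20 and 9.23) and SELENOP (9.42 and 7.09), the plasma selenium carrier, completed the 5 non-members at least 2-fold above the 22 on both arrays.

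The next genes by this gap were SPARCL1, RGS1, SERPING1, A2M, CTSH, HLA-DPB1, GPNMB and FCER1G, and 2 HLA-DRB genes whose near-identical sequences make them uncertain. GPNMB, a glycoprotein of macrophages and other cells, had 9.66 and 10.13, against 8.46, 8.90 and 9.24. FCER1G, which like TYROBP is an adaptor of myeloid receptors, had 7.83 and 8.12, against a range of 6.55 to 7.42. GPNMB and FCER1G were higher in experiment 2, as TYROBP was. Of 13 other probe sets of the 15 genes, 5 also had both Rab25 FBS arrays above the 22. The rest belonged to COL3A1, COL1A1, RGS1 and the 2 HLA-DRB genes. Those of COL1A1 not shown above had 7.81 and 7.12 (others up to 5.44), 7.18 and 6.63 (up to 6.76), and 5.79 and 5.74 (up to 6.10). Farthest below the 22 was KLF4, with 9.07 and 9.49, against 10.10, 11.18 and 11.90, followed by DDR2, KRCC1, MKS1 and GRB10. No gene was at least 2-fold below the lowest of the 22 on both arrays.

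Genes high on 1 Rab25 FBS array alone were chosen after their values were seen. At least 2-fold above the 22 on the experiment 1 array and not above them on the experiment 2 array were 42 genes, among them epithelial genes. AGR2, a secretory protein of glandular epithelium, had 9.68 in experiment 1 and 5.14 in experiment 2, against 4.95, 5.09 and 5.27. EPCAM, an epithelial adhesion molecule, had 8.49 and 5.12, against 4.94, 5.14 and 5.29. For both genes the experiment 2 array was among the 22. IGHG3, an immunoglobulin heavy chain, had 11.62 and 5.65, with a median of 5.35 and a highest value of 5.59 on the others, so its experiment 2 value was slightly above the 22 and it is not among the 42. The reverse pattern was met by 2 genes. MMP12, the macrophage elastase, had 5.53 in experiment 1 and 8.57 in experiment 2, against a range of 5.30 to 5.65. LPL, the lipase that releases fatty acids from lipoproteins, had 5.36 and 7.35, against 5.27 to 5.56. CD36, a fatty acid receptor, had 5.87 and 7.35, against 5.10 to 5.52, so this gene, like FABP4, was higher on the experiment 2 array.

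**Figure D4:**
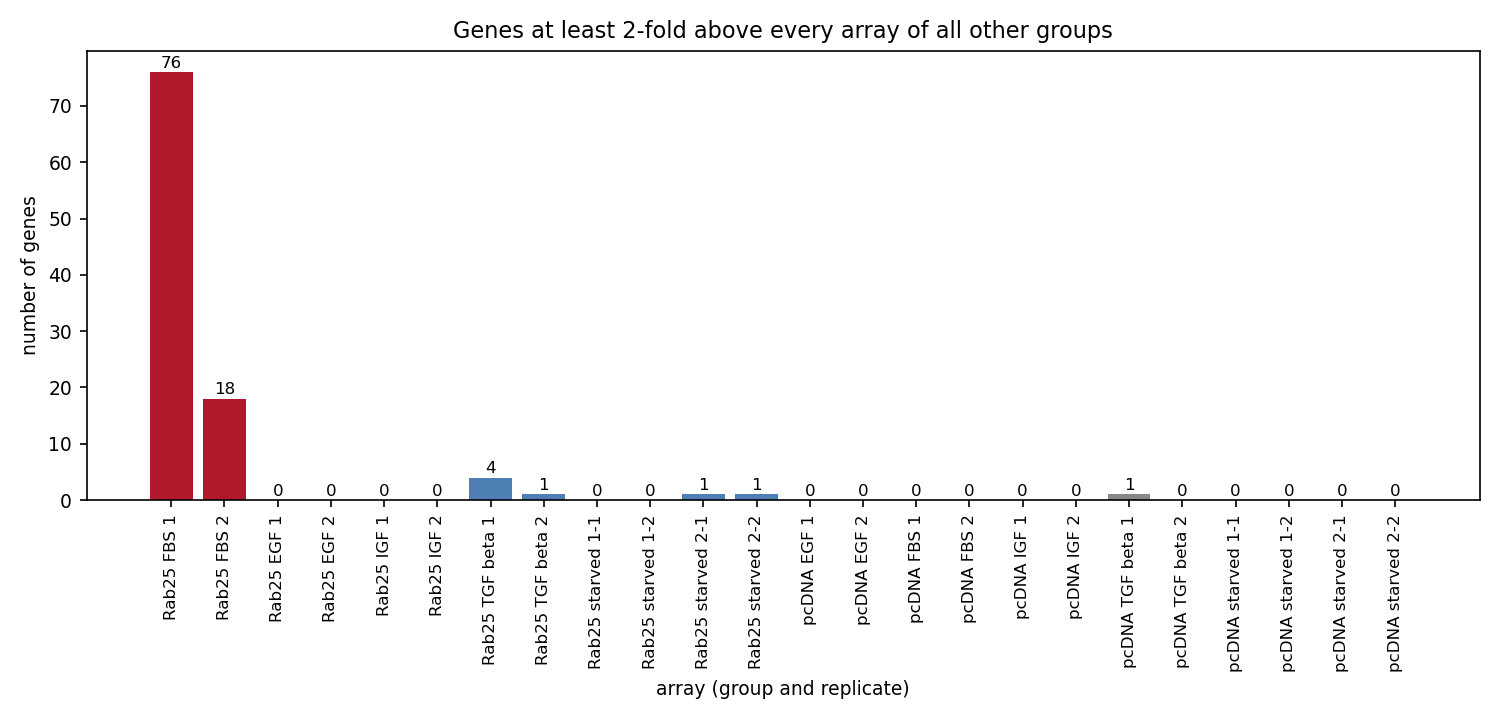
Number of genes, of 11940, whose log2 signal on each array lay at least 2-fold above every array of all other groups, with Rab25 FBS at the left (red), other Rab25 arrays in blue and pcDNA arrays in grey. The Rab25 FBS arrays had 76 and 18 such genes, and each of the 22 others had 4 or fewer.

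Lists of markers, with the 10 members left out, were read in limma's comparison of Rab25 FBS with Rab25 starved arrays, fitted over all 24 arrays. In that comparison 2.64% of all genes were higher and 5.08% lower, a split of 315 to 607 genes. That split turned to 442 to 419 under quantile normalization and 730 to 265 after centring on array medians. The lists were chosen with earlier results of these data known, so a list's share of higher genes may be partly set by the choice. The Rab25 FBS arrays also chose the members, and COL3A1, COL1A2, COL6A3 and COL1A1 were named above from them. Counts of higher list genes on these arrays, here and below, are therefore a description and are not weighed against the share of all genes. Of 16 stromal genes, 5 were higher and 0 lower: COL3A1 (log2 difference 6.67, SE 0.36), COL1A2 (4.25, SE 0.35), COL6A3 (3.22, SE 0.37), COL1A1 (2.89, SE 0.45) and ASPN (1.12, SE 0.28). The median over the 16 was 0.12, against -0.05 over all genes. DCN, also a stromal proteoglycan, had 11.81 and 11.84 on the Rab25 FBS arrays, within the 11.55 to 12.55 of the others.

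Of 12 macrophage and antigen-presentation genes, 6 were higher and 0 lower, with a median of 0.46. They were HLA-DPB1 (1.99, SE 0.38), HLA-DRA (1.48, SE 0.37), C1QA (1.24, SE 0.25), FCER1G (0.96, SE 0.17), CD163 (0.72, SE 0.10) and CD14 (0.67, SE 0.17). On the experiment 2 array HLA-DRA lay inside the range of the 22, at 6.11 against up to 6.19. C1QA, the partner chain of C1QB, had 7.14 and 5.62 on the Rab25 FBS arrays, against 4.94, 5.10 and 5.33. CD163, a scavenger receptor of macrophages, had 6.23 and 6.03, against 5.22, 5.36 and 5.76.

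Of 12 breast epithelial genes, 3 were higher and 0 lower (KRT19 2.69, SE 0.64, AGR2 2.38, SE 0.66, and TFF1 1.58, SE 0.42), with a median of 0.37. On the experiment 2 array AGR2 and TFF1 lay inside the range of the 22, TFF1 at 5.55 against up to 5.60. Of 10 adipocyte genes, 1 was higher, CD36 (1.41, SE 0.24), with a median of 0.11. The adipocyte genes ADIPOQ, PLIN1, LEP and ADH1B lay inside the range of the 22 on both arrays. Among the other lists, PTPRC (1 of 10 T and NK cell genes), PECAM1 (1 of 8 endothelial genes), TAGLN (1 of 7 smooth muscle genes) and EPCAM (1 of 10 ovarian carcinoma genes) were higher. Of these, PECAM1, TAGLN and EPCAM lay inside the range of the 22 on the experiment 2 array. PTPRC had 5.68 and 5.70 on the Rab25 FBS arrays, against up to 5.56 on the others, a small excess at a low signal. None of 6 B and plasma cell, 5 red cell, 5 mast cell, 10 liver or 10 neuron and muscle genes was higher, and 1 red cell gene (SLC4A1) and 2 neuron and muscle genes (SYT1 and MBP) were lower, with both Rab25 FBS arrays in the fit. In pcDNA cells, FBS against starvation gave 0 higher and 0 lower genes in the stromal, breast, adipocyte and macrophage lists, when 10.4% of all genes were called in either direction. Most genes of these lists had a median over the 22 arrays below the 40th percentile: 11 of 16 stromal, 8 of 12 breast, 9 of 10 adipocyte and 8 of 12 macrophage genes. At such low signal a change can be missed, so 10.4% is not a like reference and nothing is read from these counts of 0.

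These counts differed with the array used. With the Rab25 FBS array of experiment 1 alone, 6 stromal, 7 breast, 8 macrophage and 1 adipocyte genes were higher, when 8.82% of all genes were. With the array of experiment 2 alone, 4 stromal, 1 breast, 3 macrophage and 2 adipocyte genes were higher, when 1.26% of all genes were. In the lists with no higher gene above, the experiment 1 array alone gave IGHM and JCHAIN (2 of 6 B and plasma cell genes), HBA2 (red cell), TPSB2 (mast cell) and SERPINA1 (liver) as higher, and the experiment 2 array alone gave 0. The mean deviation of the 12 breast genes from the median of the 22 was 1.52 on the experiment 1 array and 0.01 on the experiment 2 array, against -0.22 to 0.24 on the others. That of the 16 stromal genes was 1.46 and 0.88, against -0.27 to 0.22 (medians over the genes 0.25 and 0.0027), and that of the 12 macrophage genes 1.05 and 0.35, against -0.08 to 0.08. The adipocyte list differed from the other 3 in that its mean was higher on the experiment 2 array than on the experiment 1 array, at 0.09 in experiment 1 and 0.40 in experiment 2, against -0.10 to 0.18 on the others. Its medians over the genes were 0.07 on both arrays, and LPL (1.92) and CD36 (2.04) had the high values behind the experiment 2 mean. Its part in the FABP4 values, and that of the other lists in their members' values, was not tested.

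**Figure D5:**
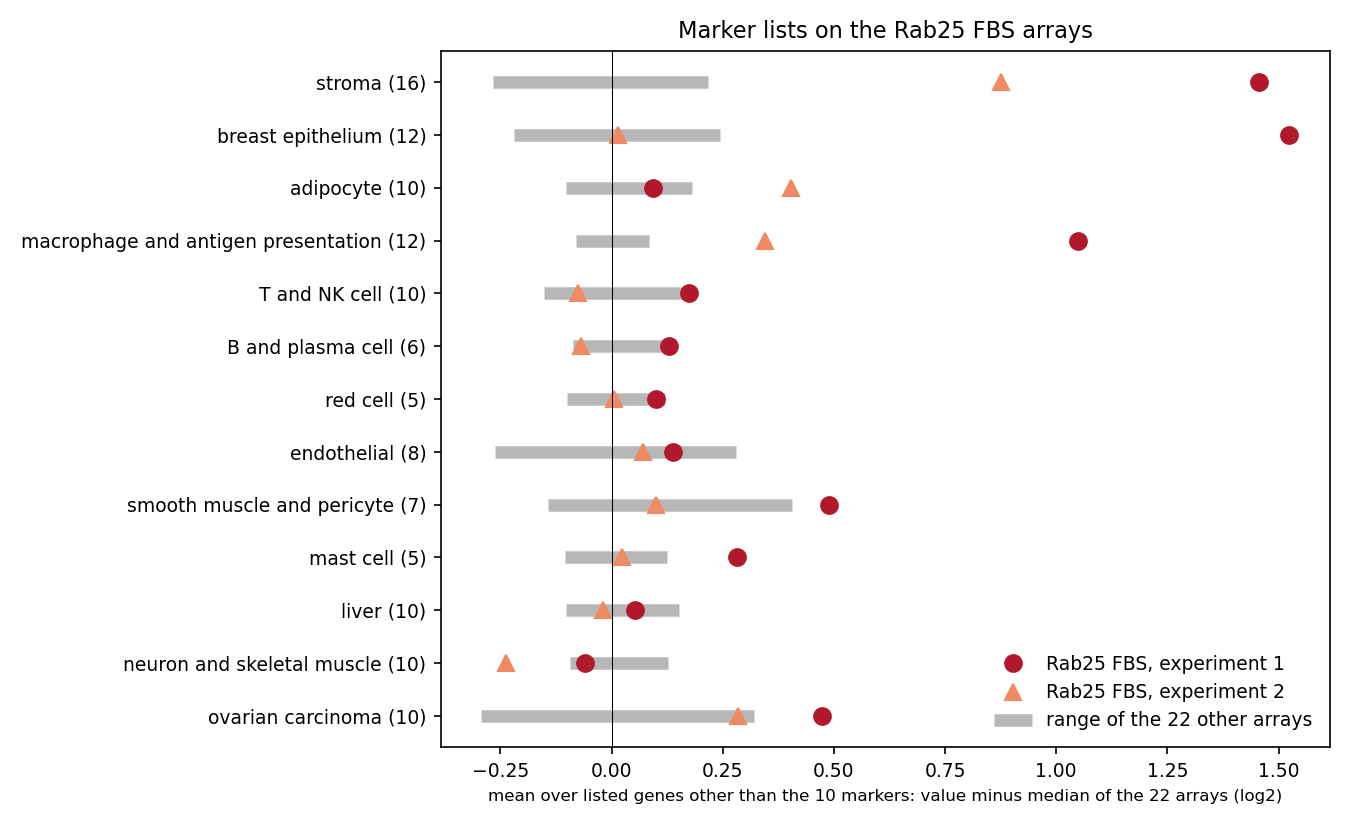
Mean log2 deviation of marker lists, without the 10 markers, from the median of the 22 other arrays, on the Rab25 FBS array of experiment 1 (circle) and of experiment 2 (triangle), with the range of the 22 as a grey bar and the number of genes in brackets. The stromal and macrophage lists lie above the bar on both arrays, adipocyte on the experiment 2 array, and breast, mast cell, smooth muscle and ovarian carcinoma on the experiment 1 array. Neuron and skeletal muscle lies below the bar on the experiment 2 array, and the other lists, such as liver, lie inside it on both.

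For 6 genes that mark the lines, both Rab25 FBS arrays lay outside the range of the pcDNA arrays, on the side of the Rab25 arrays. These genes were chosen with earlier results of these data known, so that side may be partly set by the choice. RAB25 itself had 8.66 and 8.18, against 8.21 to 9.08 on the 10 other Rab25 arrays and 4.90 to 5.60 on the 12 pcDNA arrays. PNMA2 had 5.66 and 6.52 on the Rab25 FBS arrays, against 5.36 to 6.15 on other Rab25 arrays and 8.23 to 8.68 on pcDNA arrays. CDCP1 had 8.21 and 7.74, against 7.76 to 8.91 on other Rab25 arrays and 10.23 to 10.89 on pcDNA arrays. On the experiment 1 array 3 of the 6 lay above every other Rab25 array: FKBP1B at 10.14 (others up to 9.64), CCND2 at 10.25 (up to 9.60) and COL5A1 at 8.67. COL5A1 ran between 6.49 and 7.85 on other Rab25 arrays and from 9.07 upward on pcDNA arrays, so its experiment 1 value was nearer to the pcDNA range. On the experiment 2 array, RAB25 and CDCP1 lay slightly below every other Rab25 array and PNMA2 lay above every other Rab25 array. The ovarian lineage factor PAX8 had 12.28 and 12.06, against 11.18 to 12.35 on the 22, while the ovarian markers MUC16, WFDC2 and EMX2 were low on all arrays. Over genes, the Rab25 FBS arrays correlated with the mean of the Rab25 starved arrays at r = 0.988 and 0.992, against 0.988 to 0.997 for the others. The others include the Rab25 starved arrays that make up that mean and the 12 pcDNA arrays, so this range is not a like reference. The median gene signal was 8.18 on the experiment 1 array and 7.86 on the experiment 2 array, against 7.99 to 8.24, the lowest of all arrays being that of experiment 2. The 3' to 5' difference of the actin control probe sets, a measure of RNA integrity, was 0.72 and 0.63 log2 units, against 0.66 to 1.17. That of the GAPDH control probe sets was 0.30 and 0.29, inside the 0.19 to 0.43 of the others. The part of any of these in the members' excess was not tested. In RNA from whole samples, more cells of a type and more RNA per cell cannot be told apart.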

How the data were processed

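Total RNA of 24 samples was hybridised to Affymetrix high-throughput human genome arrays, and the authors deposited log2 values per probe set. The submitters' processing notes name MAS5 and RMA, with no role or order, so how the values were background-corrected and normalized is unknown, and other settings are not given in the sources used here. The 22930 probe sets included 524 controls, 19415 with 1 gene symbol, 125 with several and 2866 with none. Each of 11940 genes was represented by its probe set of highest mean.

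Linear models were fitted by limma's lmFit and eBayes (version 3.58.1, R 4.3.3) with groups and the experiment as terms, over 22 arrays (12 residual degrees of freedom) or all 24 for Rab25 FBS. P-values were adjusted for all genes of a comparison after Benjamini and Hochberg, with a threshold of 0.05. The script was tested on simulated data. No filter on dim probe sets was set in the fits, and the deposited values give no signal over background, so the number of arrays limits the precision.

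Experiments paired the groups: over the 36 pairs of the 9 groups, the median correlation of their experiment deviations was 0.70 (0.09 to 0.86), and the labels number every group by experiment. The deposited columns held no identical arrays.

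The members and the 14 marker lists (148 genes, 136 measured) were chosen with earlier results of these data known. Named were the members, the 15 other genes whose lower Rab25 FBS value lay farthest above the 22 other arrays, the 5 farthest below, genes of the lists, and, chosen after their values were seen, genes high on 1 array alone. Gene positions and promoter stretches are RefSeq's (GRCh38.p14), and 6 of the 10 members had a promoter in the table. Alternatives were quantile normalization, centring on array medians, the choice of probe set, array quality weights, the arrays in the fit, the replicate block and leaving out each array.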

Additional observations from a re-analysis of the deposited data

Results flagged for a closer look

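In the 4 pcDNA starved arrays, MGP had 5.1062 on 1 array of experiment 1 (replicate 1-2), against 5.3308, 5.3545 and 5.3563 on the others, a gap of 0.898 of the whole range. FABP4 had 5.7269 on the same array, against 6.7046, 6.7477 and 6.7535, a gap of 0.952 of the range. Each of these lowest values stood farther from the others than Dixon's critical value for 4 samples allows. These 4 arrays mix both experiments, and FABP4 was lower in experiment 1. Its pcDNA arrays with TGF beta (5.74) and EGF (5.79) in experiment 1 were close to the flagged value. The other pcDNA starved array of experiment 1 (replicate 1-1) was not, with 6.7477, level with the starved arrays of experiment 2. The cause of the low FABP4 value was not tested. In all, 20 sets of 4 starved arrays were examined for the 10 members, and chance marks about 1 in 20.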

How the results depend on the processing

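Calls over all genes moved with the treatment of the experiments, the weights and the arrays. Without the replicate block (the experiment term), 1490 genes differed between lines in place of 2945, 73 responded to growth factors in place of 559, 91 to FBS in pcDNA cells in place of 1243 and 155 to FBS in Rab25 cells in place of 922. Array quality weights gave 881 genes for growth factors, 31 for FBS in pcDNA cells and 40 for FBS in Rab25 cells. With all 24 arrays, 806 genes responded to FBS in pcDNA cells, and with the 6 Rab25 starved and FBS arrays alone, 45 did in Rab25 cells. Leaving out 1 array at a time gave 2407 to 3545 genes between lines, 255 (without pcDNA TGF beta replicate 2) to 1158 (without either pcDNA FBS array) for growth factors, 189 (without pcDNA FBS replicate 1) to 3128 (without pcDNA FBS replicate 2) for FBS in pcDNA cells, 578 (without Rab25 starved replicate 1-2) to 1694 (without Rab25 FBS replicate 2) for FBS in Rab25 cells, and 4818 to 5550 between experiments. With any excess in place of a 2-fold one, 127 genes in place of 11 had both Rab25 FBS arrays above the 22. The split between lines was 1173 higher and 1772 lower, 1520 and 1473 under quantile normalization, and 2050 and 1200 after centring.

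Of the members, CD74 turned to -0.0117 between experiments with all 24 arrays (adjusted p = 0.965), and HBB on the experiment 2 array turned to -0.047 with the median of its probe sets. That median gave POSTN 3.42 and 1.38 in place of 6.48 and 2.63 log2 units over the 22. The FABP4 line call was lost without the replicate block (adjusted p = 0.112) and with all 24 arrays (adjusted p = 0.0576), while its experiment difference passed under all 29 alternatives. The CD74 experiment call was also lost under quantile normalization (adjusted p = 0.0648) and with array quality weights (adjusted p = 0.112). POSTN passed for FBS in pcDNA cells without pcDNA FBS replicate 2 (0.43, adjusted p = 0.0192), HBB passed between lines without pcDNA IGF replicate 2 (-0.13, adjusted p = 0.0217) and MGP without pcDNA TGF beta replicate 2 (-0.16, adjusted p = 0.0373). The cause was not tested.

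The 2 Rab25 FBS arrays differ by up to 24.0-fold for a member, so a mean over them describes neither, and 2 arrays limit every statement on that group. In the treated groups, exposure time by the protocol and experiment cannot be told apart. Starved arrays have no exposure time. On them FABP4 was also higher in experiment 2, by 0.52 log2 units in Rab25 cells and 0.49 in pcDNA cells. The probe sets' signal over background is not known.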
